A study of Cricetulus griseus with 3 samples.

Results

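The ubiquitin conjugation and deubiquitinating enzymes on this array were taken as all spots whose annotation gives exactly 1 gene name and whose name belongs to an enzyme family of the pathway. These are the E1 activating enzymes (Uba), the E2 conjugating enzymes and E3 or E4 ligases that carry the name Ube, the cullins (Cul), the F-box proteins (Fbx), the ubiquitin-specific proteases (Usp), the ubiquitin C-terminal hydrolases (Uch) and the OTU deubiquitinases (Otu). The choice used names alone and no measured value, but it was made with earlier results of these data known. It gave 204 of 16928 tested spots and 112 of the 8146 genes with a spot of their own. There were 2 genes of E1 enzymes, 23 of E2 enzymes, 3 of HECT ligases, 1 of a U-box ligase, 6 of cullins, 31 of F-box proteins, 37 named Usp, 2 of UCH hydrolases and 7 of OTU deubiquitinases.

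The tested cells were S-1 cells, a line of Chinese hamster ovary (CHO) origin that was made from the γ-30 line. It stably overexpresses the 4 subunits of γ-secretase, among them NCT-GST, Aph1-a2-HA and Flag-Pen2. The paper also marks the amyloid precursor protein, a γ-secretase substrate, as overexpressed in S-1 cells. The S-1 cells were kept under G418, puromycin, zeocin, hygromycin and blasticidin, and received 0.05% DMSO for 24 h. They were set against parental, untransfected CHO cells, which received the γ-secretase inhibitor DAPT at 10 µM in 0.05% DMSO for 24 h. γ-Secretase is the membrane protease that cuts Notch and the amyloid precursor protein within the membrane, and the study set enhanced against inhibited activity of it. The experiment was done 3 times independently, and on each of 3 mouse cDNA arrays an S-1 culture was hybridised together with a DAPT-treated one of CHO cells, with S-1 RNA in Cy3 on arrays 1 and 2 and in Cy5 on array 3. Cell line, constructs, selection drugs and inhibitor differed together and cannot be told apart. S-1 is 1 line, and the probes are mouse sequences read with hamster RNA.

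Ubiquitin is a small protein that cells attach to other proteins as a signal, most often for destruction by the proteasome. An E1 enzyme activates it, an E2 enzyme takes it over and an E3 ligase directs it to a substrate. In the largest group of ligases a cullin is the scaffold: it binds a RING protein that recruits the E2 at one end and, at the other, adaptors such as Skp1 with an F-box protein, which picks the substrate. Deubiquitinases (USP, UCH and OTU enzymes among them) take ubiquitin off again.

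Every value below is a log2 ratio with S-1 cells above and DAPT-treated CHO cells below the line, so that 1 means a doubled signal in S-1 cells. It is a ratio of whole cultures, in which fewer cells of a kind and less RNA per cell cannot be told apart, and it carries no level: how abundant a transcript was is not known from it. A gene value is the mean over the gene's spots on each array, given below with its SD over the 3 arrays (n = 3 throughout). A call is an adjusted p under 0.005 in limma's moderated test against 0, two-sided, with Benjamini-Hochberg adjustment over all spots or all genes of the array. As a check of the direction, 3 of the transfected subunits had gene values of 2.84, 3.11 and 3.33 for Psenen (Pen2), 1.85, 2.17 and 2.04 for Aph1a and 0.33, 0.15 and 0.64 for Ncstn (nicastrin) on arrays 1, 2 and 3, and Ncstn did not pass (adjusted p = 0.0313). Over the 204 spots the arrays correlated with Pearson's r of 0.930 (arrays 1 and 2), 0.778 (1 and 3) and 0.771 (2 and 3), against 0.962, 0.878 and 0.892 over all tested spots. Spots are not independent replicates, so these are descriptions.

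Most of these enzymes did not differ past the threshold between S-1 and DAPT-treated CHO cells. At the level of genes, 15 of 112 (13.4%) passed the test, against 22.6% of all genes. Of these, 7 were higher in S-1 cells, where 12.4% of all genes were, and 8 were lower, where 10.3% of all genes were. When only clones whose names begin with H entered, 14.3% of the 112 genes passed, against 18.7% of all genes. The higher genes were Uchl5, Fbxo10, Cul5, Ube2t, Ube2a, Usp38 and Usp39, and the lower genes were Fbxo21, Cul7, Ube2o, Ube2q1, Usp32, Ube3b, Ube2g1 and Usp4. The gene values had a median of −0.04 with quartiles of −0.19 and 0.13, against 0.01 with quartiles of −0.16 and 0.18 over all genes. The largest differences were 1.81-fold higher (Uchl5) and 1.94-fold lower (Fbxo21).

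At the level of spots, 33 of 204 (16.2%) passed, against 18.2% of all spots. They were 15 higher spots, beside a background of 9.68%, and 18 lower spots, beside 8.52%. The spots ranged between −1.09 and 0.90, where all spots of the array ranged between −4.34 and 4.16, and 1 called spot, of Fbxo21, lay beyond 1 on the log2 scale in either direction. All 33 called spots had one sign on all 3 arrays, as did 141 of the 204. The array held clones whose names begin with H at 15360 tested spots and clones of other names at 1568. Of the clones of other names 46.7% were called (599 higher and 133 lower), and of the H clones 15.3%. Among the ubiquitin enzymes 201 spots were H clones, of which 32 (15.9%) were called. The 3 others were 1 spot each of Cul1, Cul2 and Cul3.

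The counts depended on which arrays entered. Without array 1 the 15 called genes became 2 (Uchl5 and Fbxo10), without array 2 they became 1 (Uchl5), and without array 3, the array with the other dye orientation, 42 genes passed, the 15 among them. Counts over the whole array moved in the same way, with 8.26%, 5.97% and 40.5% of all genes called. The spots numbered 8, 0 and 75 under the same removals in limma, where 7.98%, 2.14% and 37.0% of all spots were called, and the 0 stood beside 77 spots with an unadjusted p under 0.05. No gene called over 3 arrays could change sign in these, since each had one sign on all 3 arrays.

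**Figure D1:**
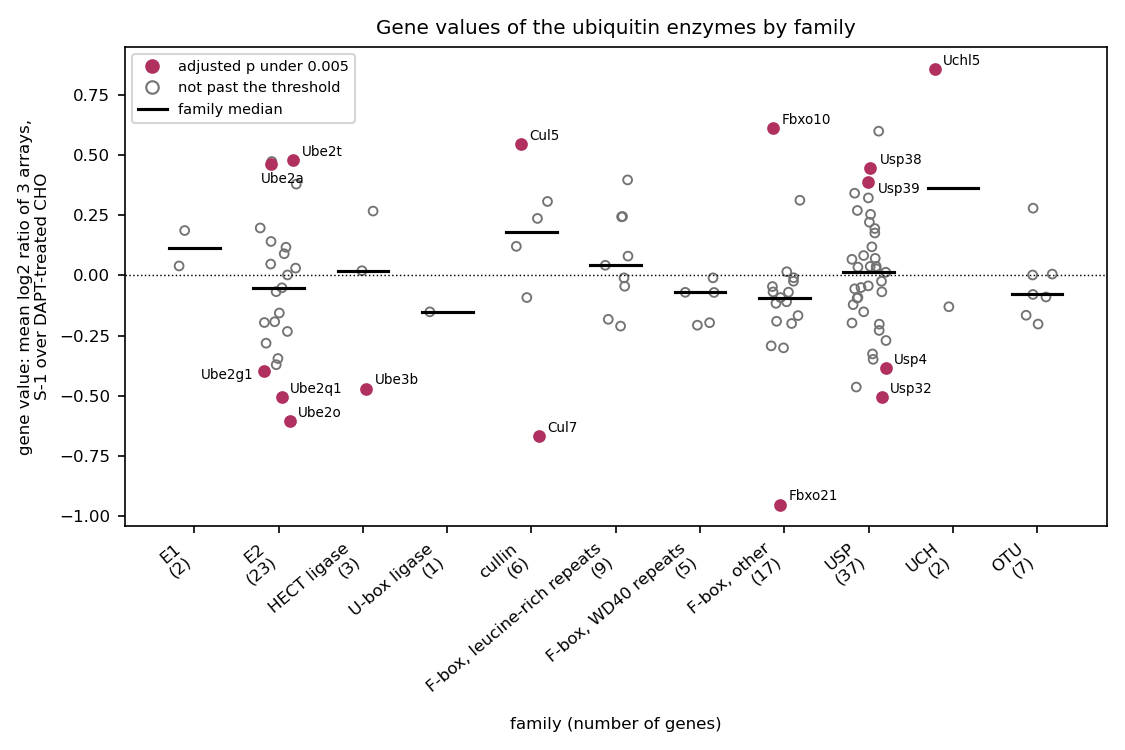
Gene values (mean log2 ratio of 3 arrays, S-1 to DAPT-treated CHO, vertical axis) of the 112 ubiquitin enzyme genes by family (horizontal axis, number of genes in brackets), with filled points for an adjusted p under 0.005 and a bar for each family's median. The 7 higher and 8 lower genes lie in 6 of the families, and most points lie between −0.25 and 0.25.

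The start of the cascade was represented by 2 E1 genes, and neither passed. Uba3, the catalytic subunit of the E1 enzyme for the ubiquitin-like protein NEDD8, had values of −0.03, −0.00 and 0.15 on its only spot. Uba6, an E1 enzyme for ubiquitin and for FAT10, had gene values of 0.06, 0.26 and 0.24 over 2 spots (mean 0.19 ± 0.11, adjusted p = 0.0507 in limma). Of these 2 genes, 1 had an unadjusted p under 0.05.

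Among the 23 genes placed by name alone with the E2 conjugating enzymes, 2 were higher (Ube2t and Ube2a) and 3 were lower (Ube2o, Ube2q1 and Ube2g1). The other 18 did not pass, and the family had a median of −0.05. The share called was 21.7%, against 22.6% of all genes, or 18.7% of all genes with H clones alone. Ube2t, the E2 enzyme that adds ubiquitin to FANCD2 in the Fanconi anaemia pathway of DNA crosslink repair, had 0.43, 0.61 and 0.41 on its single spot and was 1.40-fold higher in S-1 cells (0.48 ± 0.11, adjusted p = 0.00262). Ube2a, a mammalian counterpart of yeast Rad6 that works in DNA damage tolerance, had gene values of 0.44, 0.37 and 0.58 (0.46 ± 0.10, 1.38-fold, adjusted p = 0.00262). Both of its spots were positive on all arrays. One of them read 0.56, 0.53 and 0.55 and passed alone, while the other read 0.32, 0.22 and 0.61 and did not (adjusted p = 0.0208).

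The strongest fall among the E2 genes was that of Ube2o, a large enzyme that joins E2 and E3 activities in one chain, with −0.60, −0.69 and −0.53 on 1 spot (−0.61 ± 0.08, 1.52-fold lower, adjusted p = 0.000882). Ube2q1 was 1.42-fold lower, and both of its spots passed, with −0.47, −0.63 and −0.51 on one and −0.41, −0.43 and −0.58 on the other (gene value −0.51 ± 0.06, adjusted p = 0.00114). Ube2g1, an E2 enzyme that extends chains on substrates of cullin 4 ligases in human cells, was 1.32-fold lower. Its spots read −0.51, −0.60 and −0.42 (called) and −0.27, −0.35 and −0.22 (adjusted p = 0.00995), and its gene value was −0.40 ± 0.08 (adjusted p = 0.00306). None of these 3 genes had a positive value on any spot or array.

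At the level of spots the E2 family gave 2 higher and 7 lower of 42, beside 9.68% and 8.52% of all spots. Differences from these shares were not tested. The 7 lower spots included 1 each of 3 genes whose gene value did not pass. Ube2d3, one of the most widely used E2 enzymes, had the widest disagreement of any gene here: its 3 spots averaged −0.83 (−0.83, −0.93 and −0.74, called), −0.15 (−0.30, −0.32 and 0.15) and 0.29 (0.26, 0.38 and 0.22). Its gene value of −0.23 ± 0.10 did not pass (adjusted p = 0.0209). Ube2e2 had 1 called spot at −0.49, −0.56 and −0.73 and another at 0.03, 0.04 and 0.02. Ube2r2, a Cdc34-type E2 enzyme that serves cullin ligases, had −0.37, −0.51 and −0.56 on its called spot and −0.21, −0.39 and −0.03 on the other, with a gene value of −0.35 ± 0.09 just outside the threshold (adjusted p = 0.00546). Ube2r2 was picked for mention after its values were seen. Spots of 1 gene are separate clones, and which stretch of the transcript each clone covers was not examined here.

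The E2 enzymes Ube2c and Ube2s serve the anaphase-promoting complex, the ligase that drives exit from mitosis, and both read lower on array 3. Ube2c, which starts ubiquitin chains there, read 0.62 and 0.79 on arrays 1 and 2 and 0.01 on array 3. Ube2s, which extends them, read 0.53, 0.60 and 0.01. Neither passed (adjusted p = 0.0582 and 0.0597 for the gene values), and both were picked after their values were seen. The pattern was not confined to them, since Fbxl18 read 0.34, 0.38 and 0.01. Of the activators of the complex, Fzr1 read 0.45, 0.63 and 0.02, but Cdc20 read 0.65, 0.75 and 0.94. Fbxl18 and Fzr1 were also picked after their values were seen.

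Of the 3 HECT ligases named Ube3, 1 was lower. Ube3b had gene values of −0.48, −0.37 and −0.57 (−0.47 ± 0.10, 1.39-fold lower, adjusted p = 0.00243). One of its spots read −0.78, −0.60 and −0.70 and passed, and the other read −0.17, −0.13 and −0.45 and did not, so that both were negative on every array. Ube3a (E6AP), the ligase lost in Angelman syndrome, did not pass, with a gene value of 0.27 ± 0.14 over 4 spots (adjusted p = 0.0246). Ube3c, with 0.07, 0.01 and −0.01, lay near 0. Ube3a and Ube3c are named after their values were seen, to complete the family. The U-box enzyme Ube4b, which lengthens existing ubiquitin chains, had 1 called spot of 4, at −0.58, −0.52 and −0.39, while the others averaged −0.17, 0.02 and 0.04. Its gene value of −0.15 ± 0.02 did not pass (adjusted p = 0.0361).

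Of 6 cullin genes 1 was higher, 1 was lower and 4 did not pass, with a median of 0.18. Over all genes 12.4% were higher and 10.3% were lower. Of the 16 cullin spots, 4 were higher and 2 lower, beside 9.68% and 8.52% of all spots. Differences from these shares were not tested. Cul5, the scaffold of ligases that use SOCS box proteins, had 0.46, 0.52 and 0.51 on one spot and 0.50, 0.61 and 0.69 on the other, and both passed. Its gene value was 0.55 ± 0.06 (1.46-fold higher, adjusted p = 0.00096). Cul7, a scaffold that works with the F-box protein Fbxw8 and is mutated in the human growth disorder 3M syndrome, had −0.80, −0.73 and −0.83 on one spot and −0.49, −0.49 and −0.68 on the other, and both passed. Its gene value was −0.67 ± 0.08 (1.59-fold lower, adjusted p = 0.000648). The spots of Cul5 and of Cul7 thus lay on opposite sides of 0 on every array.

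The other cullins had values on both sides of the threshold or near 0. Cul3, the scaffold for BTB domain adaptors, was positive on all 3 spots and arrays, with spot means of 0.13, 0.38 (called) and 0.42, and its gene value was 0.31 ± 0.13 (adjusted p = 0.0135). The called Cul3 spot was the clone whose name does not begin with H. Cul2, the scaffold of the von Hippel-Lindau ligase, had 0.38, 0.44 and 0.60 on its H clone, which passed, and −0.06, 0.02 and 0.04 on its other clone, with a gene value of 0.24 ± 0.08 (adjusted p = 0.0152). Cul1, the scaffold of the SCF ligases that the F-box proteins join, had 6 spots whose means lay between −0.02 and 0.36, none of them called, and a gene value of 0.12 ± 0.08 (adjusted p = 0.105). Cul4a read −0.13, −0.05 and −0.09. With H clones alone the gene value of Cul2 was 0.47 and passed (adjusted p = 0.00304), and with the median of spots in place of the mean that of Cul3 was 0.37 and passed (adjusted p = 0.00365).

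Of 31 genes of F-box proteins 1 was higher, 1 was lower and 29 did not pass, with a median of −0.07. The share called was 6.5%, against 22.6% of all genes, or 18.7% with H clones alone, and the difference was not tested. None of the 9 Fbxl genes (leucine-rich repeats) passed, with 5 at an unadjusted p under 0.05, and none of the 5 Fbxw genes (WD40 repeats) did, with 0 at that level. The Fbxw values lay between −0.21 and −0.01, and among them was Fbxw11, a β-TrCP protein that recognises phosphorylated β-catenin, at −0.07 ± 0.10 with spots of −0.30 and 0.16, also picked after its values were seen.

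Fbxo21 had the largest fall among all 112 genes, 1.94-fold. Its spots read −0.94, −0.92 and −1.39 on one and −0.67, −0.69 and −1.10 on the other, both called, with the lowest value of each on array 3 (gene value −0.95 ± 0.25, adjusted p = 0.00174). Fbxo10, an F-box protein reported to direct the survival factor BCL2 to destruction in human cells, had 0.53, 0.68 and 0.63 on its only spot and was 1.53-fold higher (0.61 ± 0.07, adjusted p = 0.000794). Fbxo3 and Fbxo34 had 1 called spot each, both lower (−0.36 and −0.58), with the other spots between −0.15 and −0.01 and gene values that did not pass (adjusted p = 0.0291 and 0.00844). Fbxo5 (Emi1), the inhibitor of the anaphase-promoting complex, had −0.27, −0.15 and 0.10 and did not pass. The last 3 of these genes were picked after their values were seen.

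Among the 37 genes named Usp, the largest family here, 2 were higher (Usp38 and Usp39), 2 were lower (Usp32 and Usp4) and 33 did not pass, with a median of 0.01. The share called was 10.8%, against 22.6% of all genes, or 18.7% with H clones alone, and the difference was not tested. One of the 37, Usp6nl, encodes a GTPase-activating protein that shares part of its name with the proteases and is not a deubiquitinase. It read −0.02, −0.05 and −0.06, and is named for this reason although no rule picked it. Usp38 had 0.33, 0.36 and 0.43 on one spot and 0.46, 0.54 and 0.57 on the other, and both passed (gene value 0.45 ± 0.05, 1.36-fold higher, adjusted p = 0.00154). Usp39, a splicing factor of the tri-snRNP that has lost the catalytic residues of the family, had 0.39, 0.43 and 0.34 on 1 spot (0.39 ± 0.05, 1.31-fold higher, adjusted p = 0.0022).

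Usp32, a membrane-bound protease, had 2 called spots at −0.99, −0.87 and −0.77 and at −0.92, −0.87 and −0.59, and another spot at 0.07, 0.12 and 0.25. The gene value of −0.51 ± 0.12 (1.42-fold lower, adjusted p = 0.00266) thus averaged spots of opposite sign. Usp4 had −0.36, −0.36 and −0.43 on 1 spot (−0.38 ± 0.04, 1.31-fold lower, adjusted p = 0.00216). Its close relative Usp15 had a called spot at 0.37, 0.47 and 0.46 and another at −0.30, −0.31 and 0.03, so that its gene value of 0.12 ± 0.11 did not pass.

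At the level of spots, 6 of 72 Usp spots were higher and 3 were lower, beside 9.68% and 8.52% of all spots, and a difference was not tested. Usp16, a histone H2A deubiquitinase, had a called spot at 0.46, 0.52 and 0.65 and another at 0.01, −0.07 and 0.06. Usp14, a deubiquitinase of the proteasome, was positive on all 3 spots and arrays, with means of 0.13, 0.26 and 0.58, of which the last passed, and its gene value of 0.32 ± 0.09 missed the threshold (adjusted p = 0.00704). Usp1, which removes ubiquitin from FANCD2, the substrate of Ube2t, read 0.23, 0.43 and 0.36 and also missed it (adjusted p = 0.00644). Usp36, a nucleolar protease, had the highest gene value among the Usp genes, 0.60 ± 0.23 with 0.46, 0.48 and 0.86, and a spread that left it outside (adjusted p = 0.00563). Usp28 had the lowest value of those that missed it, −0.46 ± 0.16 with −0.40, −0.35 and −0.64 (adjusted p = 0.00536). Usp14, Usp1, Usp36 and Usp28 were picked after their values were seen.

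The UCH enzymes were 2 genes that differed from each other. Uchl5 (UCH37), which acts at the proteasome and in the INO80 chromatin remodeller, had the highest value of the 112 genes. Its spots read 0.78, 0.95 and 0.74 on one and 0.82, 0.83 and 1.04 on the other, both called, and its gene value was 0.86 ± 0.05 (1.81-fold higher in S-1 cells, adjusted p = 0.000237). It was called under every alternative listed in the closing section, array removals included. Uchl1, known as an abundant protein of neurons, had −0.29, −0.33 and −0.27 on one spot (adjusted p = 0.00597) and 0.04, 0.04 and 0.03 on the other, and a gene value of −0.13 ± 0.01 that did not pass (adjusted p = 0.0541).

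None of the 7 OTU deubiquitinases passed in limma, with 2 at an unadjusted p under 0.05. The highest value was that of Otud6b, with 0.24, 0.39 and 0.20 over 2 spots (0.28 ± 0.10, adjusted p = 0.0122). The lowest was that of Otud4, at −0.20 ± 0.24, whose 3 spots were negative in mean but of which one read 0.04, 0.18 and −0.70. Otulin, which takes apart linear ubiquitin chains, read −0.20, −0.16 and −0.14 (adjusted p = 0.0284). Otub2, Otud1, Otud5 and Otud7b lay between −0.09 and 0.01.

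**Figure D2:**
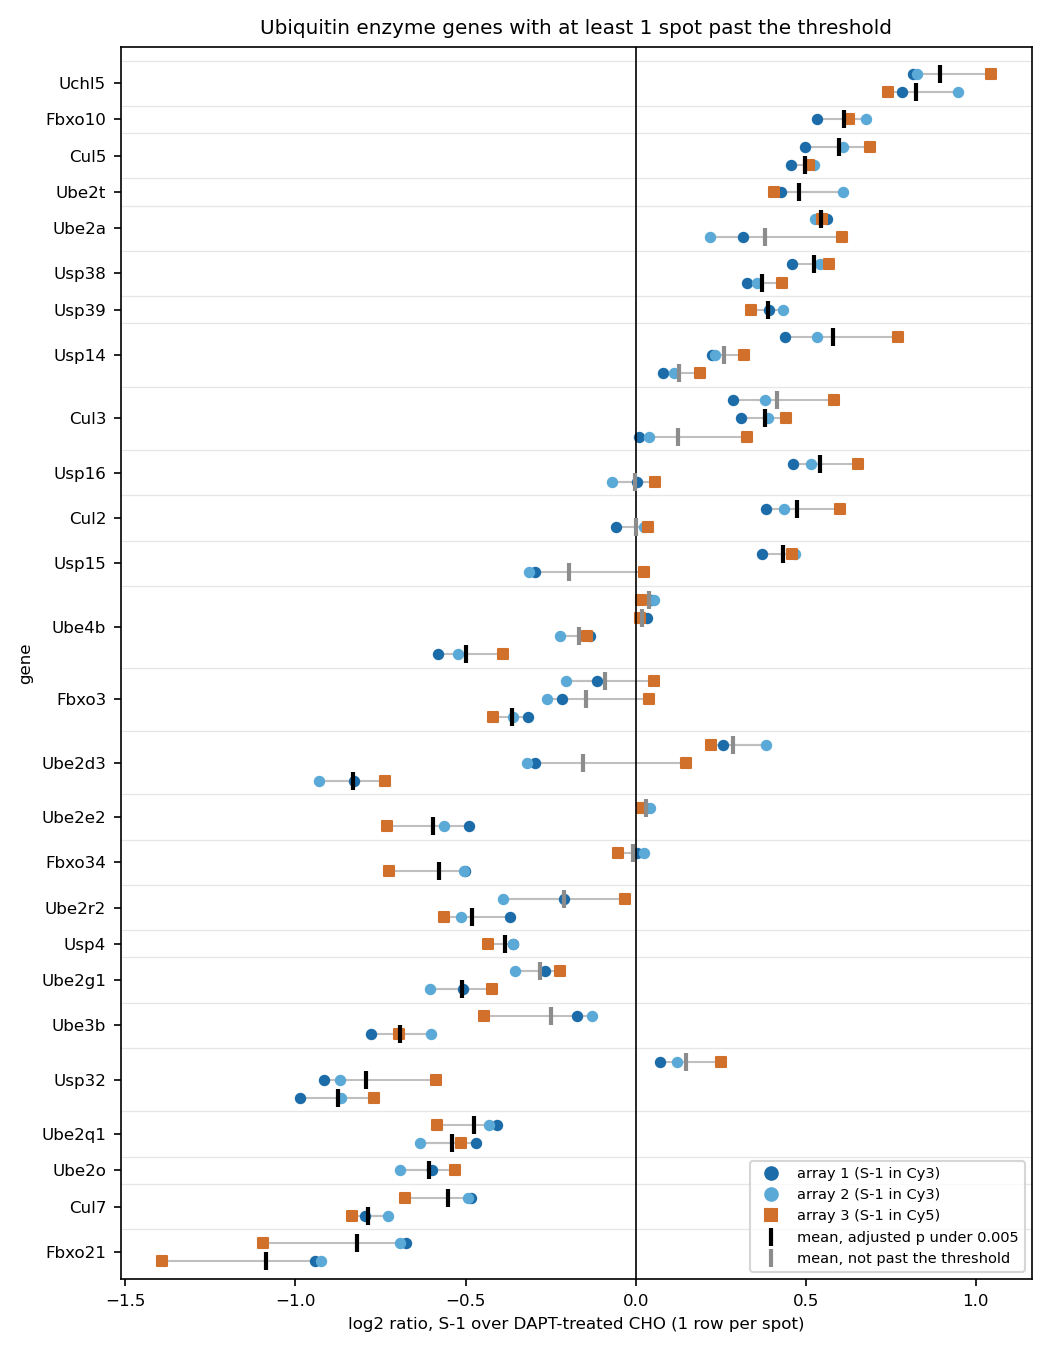
Log2 ratios of S-1 to DAPT-treated CHO (horizontal axis) on arrays 1 and 2 (circles, S-1 in Cy3) and array 3 (squares, S-1 in Cy5) for every spot of the 26 genes with at least 1 called spot, 1 row per spot and with genes in the order of their value; the upright ticks are spot means, black where called. Uchl5, Cul5, Usp38, Ube2q1, Cul7 and Fbxo21 have every one of their spots called, and Usp32, Ube2d3 and Usp15 have spots on both sides of 0.

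Clones of the same gene often differed. Of the 112 genes 55 had 1 spot and 57 had more, with 6 at most. Of the 57, 31 (54.4%) had all spot means on one side of 0, against 58.1% of 2877 genes with several spots on the whole array, and the median range between spots of a gene was 0.24 against 0.22. In 21 of the 57 genes at least 1 spot was called. In 6 of them every spot was called (Cul5, Cul7, Fbxo21, Ube2q1, Uchl5 and Usp38), and in 15 some spots were called and others were not. No gene had called spots of both signs. Of the 55 genes with 1 spot, 5 were called: Fbxo10, Ube2t, Ube2o, Usp39 and Usp4. Another 12 spots had an adjusted p between 0.005 and 0.01.

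Few of these spots differed by much between the dye orientations. The mean of arrays 1 and 2 differed from array 3 by over 0.5 at 6 of the 204 spots (2.94%), against 4.23% of all spots, and none of the 6 was called. Such a gap widens the spread that the test divides by, so a call was less likely beforehand for these 6 spots. Besides Ube2c and Ube2s they belonged to Usp9x (−1.02, −0.95 and −0.37), Usp42 (−0.29, −0.24 and −1.05), Fbxo6 (0.10, 0.04 and −0.49) and Otud4. Usp9x, a large X-linked protease, had 6 spots whose means ran between −0.78 and 0.07, each with its highest value on array 3. The 6 spots farthest apart were picked by this difference. With S-1 RNA in Cy5 on 1 array only, dye and array cannot be told apart.

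**Figure D3:**
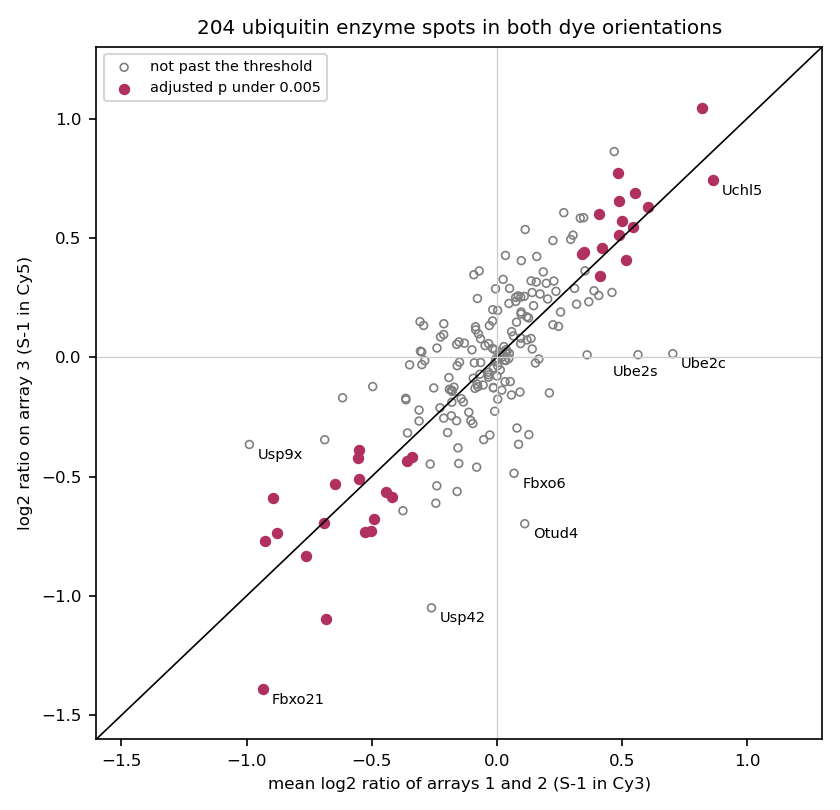
Log2 ratio of S-1 to DAPT-treated CHO on array 3 (S-1 in Cy5, vertical axis) against the mean of arrays 1 and 2 (S-1 in Cy3, horizontal axis) for the 204 spots, filled where called, with the line of equal values. The called spots lie in the upper right and lower left. Those of Fbxo21 lie below the line, at −0.93 against −1.39 on array 3 and at −0.68 against −1.10. The 6 labelled spots farthest from the line, among them Ube2c, Ube2s and Usp9x, are open points.

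The rest of the pathway was described by lists of its other genes, of which 196 were measured by name. Over these, 15 were higher, 17 were lower and 164 did not pass, with a median of −0.01. The share called was 16.3%, against the 22.6% of all genes. With H clones alone 18.7% of all genes passed, and the lists were not counted in that way. The genes for ubiquitin itself were not measured by a spot of their own. Of 14 other HECT ligases 3 were lower and none was higher: Smurf1 (−0.66 ± 0.10) and Smurf2 (−0.59 ± 0.12), which direct TGF-β and BMP signalling proteins to destruction, and Nedd4 (−0.30 ± 0.02). With Ube3b these made 4 lower HECT ligases of 17. No HECT ligase passed as higher, with 1 of the 17 (Ube3a) at an unadjusted p under 0.05 in that direction. Over all genes 10.3% passed as lower and 12.4% as higher, and a difference from these shares was not tested.

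Of 72 RING and RBR ligases 5 were higher and 6 were lower (15.3% called, against 22.6% of all genes), with a median of −0.04. Rad18, the ligase that works with Ube2a and its relative at stalled replication forks, was 1.59-fold higher (0.58, 0.74 and 0.67, adjusted p = 0.000708), and Rnf168, a ligase of the DNA damage response, was 1.32-fold higher. Traf6 and Traf2, ligases of cytokine receptors, had 1.04 and 0.81, with 1 of the 2 Traf6 spots and the Traf2 spot on clones not named H. Marchf1, a membrane-bound ligase, was 2.31-fold lower (−1.25, −1.04 and −1.33), the largest fall in these lists, and Rnf130 was 1.67-fold lower. The other called ligases of this list were Rnf167 (0.64 ± 0.21), which was higher, and Ttc3, Rnf216, Rnf217 and Rnf19b, which were lower, between −0.49 and −0.32.

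Of 40 partners of the cullins 5 were higher and 5 were lower (25.0% called, against 22.6% of all genes). Socs5 (1.86, 2.31 and 2.59) and Socs1 (1.67, 1.90 and 1.70), of the class of SOCS box adaptors that Cul5 takes up, had the highest values of any gene in the lists, and both were read from a single clone not named H. The other SOCS genes of the list did not pass: Socs4 had 0.15 ± 0.03, Socs6 −0.16 ± 0.10 and Socs3 −0.18 ± 0.04. Asb3, also a SOCS box protein and on an H clone, was higher at 0.42 ± 0.08, and Klhdc2, a substrate receptor of Cul2 ligases, was higher at 0.49 ± 0.13. Kctd5, an adaptor of Cul3, was higher at 0.52 ± 0.07, while the Kelch adaptors Klhl2, Klhl21, Klhl7 and Klhl24 were lower, between −0.57 and −0.29. Ddb1, the adaptor of Cul4 ligases, was 1.28-fold lower (−0.41, −0.31 and −0.34, adjusted p = 0.00308).

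Of 12 genes of the anaphase-promoting complex and its activators 1 passed: Cdc20, its mitotic activator, at 0.65, 0.75 and 0.94 (0.78 ± 0.15, 1.71-fold higher). Of 8 subunits of the COP9 signalosome, which takes NEDD8 off the cullins, Cops7b (0.35 ± 0.08) and Cops3 (0.35 ± 0.05) were higher and 6 did not pass. In the lists of NEDD8, SUMO and other modifiers, 1 of 18 was higher (Ufl1, the ligase for UFM1, at 0.42 ± 0.03) and 2 were lower (Sumo3 at −0.44 ± 0.11 and the SUMO protease Senp7 at −0.75 ± 0.16). None of 10 genes listed as deubiquitinases under other names passed in limma, with 5 at an unadjusted p under 0.05. Not all are of other families or act as deubiquitinases. Bap1 is a UCH and Zranb1 an OTU enzyme, and Eif3f and Eif3h encode subunits of a translation initiation factor. Of 22 ubiquitin receptors and VCP cofactors, Plaa was higher (0.55 ± 0.13) and Bag6 was lower (−0.29 ± 0.03). Beside the counts of this paragraph stand 22.6% of all genes called, 12.4% as higher and 10.3% as lower. Differences of the lists from these shares were not tested.

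Counted by genes, the share of calls among the ubiquitin enzymes was below that of all genes in most ways of processing the same ratios, as the bars by processing show. It was 43.8% against 46.2% at a threshold of 0.05, 14.3% against 18.7% with H clones alone and 33.9% against 37.7% with array weights. With a coefficient for the dye it was 45.5% against 44.9%. Counted by spots, the share lay above that of all spots at a threshold of 0.05 (40.7% against 39.8%), with the dye coefficient (42.6% against 40.4%) and with H clones alone (15.9% against 15.4%), so that the order depended on the unit counted. The difference in share was not tested.

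**Figure D4:**
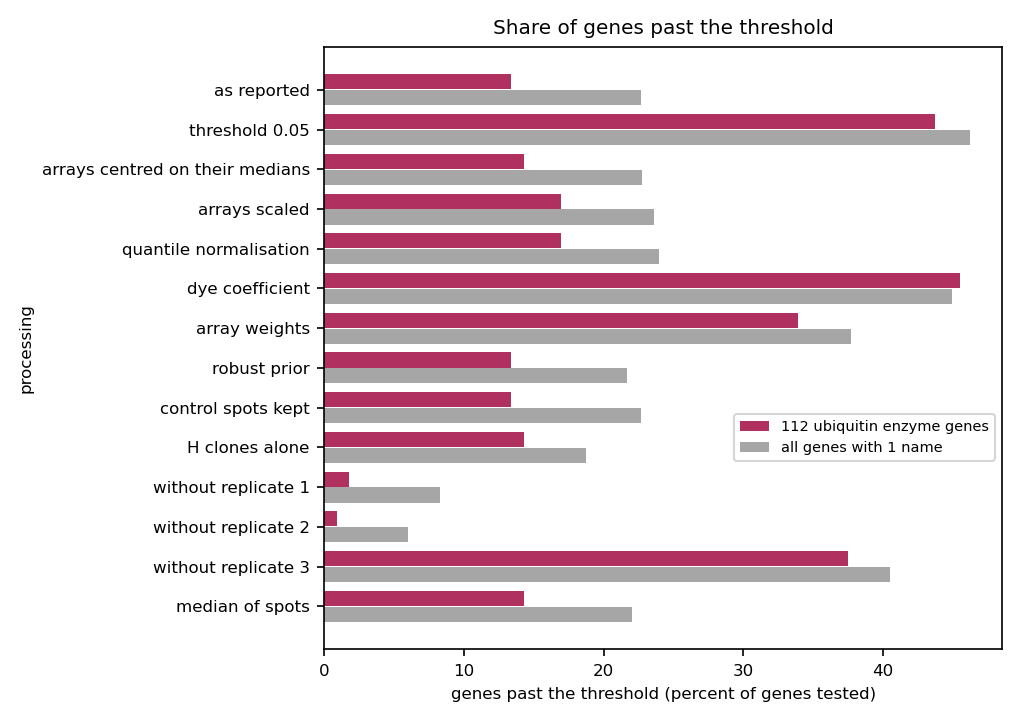
Percent of genes past the threshold (horizontal axis) among the 112 ubiquitin enzyme genes and among all genes with 1 name, for the reported processing and each alternative (vertical axis). The bar of the ubiquitin enzymes is the shorter one except with the dye coefficient, and both bars lengthen together without array 3, with array weights and at the looser threshold.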

How the data were processed

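Total RNA was amplified, labelled and hybridised in 2 colours to mouse cDNA arrays of 17664 spots, 3 arrays in all. The authors read them with GenePix Pro, and the log2 ratios they deposited, 1 per spot and array, had been normalised by lowess within print-tip groups, with no background subtracted. All 3 columns run as S-1 over DAPT-treated CHO. Intensities were not used here, so neither levels nor signal over background can be given, and 3 arrays limit the precision.

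The 736 spots at 23 within-block positions that carry no gene name in any of 32 blocks were treated as controls and dropped, leaving 16928. Names came from the array's annotation: 12563 spots had 1 name, 412 several and 3953 none. Another 11 spots with several names, 1 of them of a family above, were left out (0 called in limma, 6 at an unadjusted p under 0.05). Of the 112 symbols, 102 are in the hamster RefSeq annotation. The letter of a clone's name was taken from its position, placed by 2431 of 2658 clones that the study lists and that matched 1 spot (relative tolerance 1e-05).

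limma 3.58.1 in R 4.3.3 fitted an intercept to spots and to gene values (means over spots), with empirical Bayes (prior degrees of freedom 3.05 and 2.96) and Benjamini-Hochberg adjustment, at 0.005, the study's threshold. Scripts were tested on simulated data. The genes named are up to 10 called genes in each direction, all E1, cullin, UCH and OTU genes, called genes of small families, and genes with a called spot and a spot of the opposite sign. Others are marked as picked after their values were seen, and called list genes are named, with the uncalled SOCS genes beside them. The members, lists and tests were chosen with earlier results of these data known. Alternatives were a threshold of 0.05, centring, scaling, quantile normalisation, a dye coefficient, array weights, a robust prior, control spots kept, H clones alone, the median of spots and each array left out. Python 3.11.15, NumPy 2.4.6, pandas 2.3.3 and Matplotlib 3.10.9 made tables and figures.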

Additional observations from a re-analysis of the deposited data

How the results depend on the processing

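The reported counts of 33 called spots (15 higher, 18 lower) and 15 called genes (7 higher, 8 lower) stayed within 1.5 times under centring, scaling, quantile normalisation, a robust prior, H clones alone and, for genes, the median of spots (32 to 37 spots, 15 to 19 genes). A threshold of 0.05 gave 83 spots (40 higher, 43 lower) and 49 genes (21 and 28), a dye coefficient 87 spots (43 and 44) and 51 genes (23 and 28), and array weights 62 spots (31 and 31) and 38 genes (19 and 19). Array 3 had the lowest weight (0.36, against 1.48 and 1.88 for arrays 1 and 2). With control spots kept, 9 spots (5 and 4) passed and the genes did not change, since control spots carry no gene. Leaving out 1 array gave 0 to 75 called spots (0 to 37 higher, 0 to 38 lower) and 1 to 42 called genes (1 to 20 higher, 0 to 22 lower), each lowest without array 2, except that no gene was lower without array 1 either. Those zeros stood beside 38 higher and 39 lower spots and 22 lower genes without array 2, and 20 lower genes without array 1, at an unadjusted p under 0.05 in limma. The 15 called genes kept their call in 168 of 195 alternative values and lost it in 27. Of the 27, 13 were without array 1 and 14 without array 2. Several alternatives could not take a call away, so the 168 do not measure stability. These were the looser threshold and, for genes, the control spots. For genes with 1 or 2 spots the median equals the mean, so that alternative left their values as they were. No value past the threshold changed sign. Leaving out an array could not change a sign, since each of the 15 genes had one sign on all 3 arrays. Each ratio already pairs both cultures of an experiment, so the test of the ratios against 0 was a paired one. No further pairing applied, since there is 1 group of ratios.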
